A study of Mus musculus with 2 samples.

Results

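The genes described here are 10 core genes of the Notch pathway, matched by symbol in the deposited read counts of small hepatocytes (SHs) and mature hepatocytes (MHs). They comprise the receptors Notch1, Notch2, Notch3 and Notch4, the ligands Jag1, Jag2 and Dll4, the DNA-binding factor Rbpj, and the target genes Hes1 and Hey1. All 10 were found among 43280 counted gene symbols, and 7 of them had at least 10 reads over both libraries. Jag2, Notch3 and Hey1 had fewer.

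Notch signaling passes between touching cells. A Jagged or Delta-like ligand on one cell binds a Notch receptor on its neighbor, proteases of the ADAM family and then γ-secretase cut the receptor, and the freed intracellular part enters the nucleus. There it joins RBPJ and a Mastermind-like coactivator on DNA and switches on genes such as those of the HES and HEY families, which encode transcriptional repressors. In the liver, JAG1 and NOTCH2 are known for their part in bile duct formation, and DLL4, NOTCH1 and NOTCH4 for their roles in endothelial cells.

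Poly(A) RNA of 1 library of SHs and 1 library of MHs was sequenced, both freshly isolated by collagenase perfusion from the livers of C57BL6 mice whose age is labelled as 20 weeks. The methods give a younger age range for the mice of the study, name 3 mice as the source of these cells, and do not say whether their RNA was pooled. MHs came from the pellet of a slow centrifugation, with dead cells removed on Percoll and no sorting. SHs came from the supernatant of that step and were sorted as CD31-, CD45-, EpCAM- and ICAM-1+ cells, so the groups differ in fraction and in sorting as well as in cell type. The MH library held 16979136 counted reads and the SH library 42356444, a depth 2.49 times as large. Levels are given as reads per 1000000 counted reads of the library (RPM), and 3 reads, used as the limit for a count of 0, equal 0.177 RPM in MHs and 0.0708 RPM in SHs. Intervals in this text are exact 95% intervals of counting error. Neither condition was replicated. The intervals therefore do not include the variation between animals or preparations, and no p-value was computed.

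Hepatocyte markers were abundant in both libraries. The 8 hepatocyte markers, led by Alb (albumin), Cps1 (the first enzyme of the urea cycle) and Apoa1 (an apolipoprotein), together made up 78275 RPM in MHs and 83112 RPM in SHs. The genes of the sorting markers Pecam1 (CD31), Ptprc (CD45) and Epcam had 73, 9 and 6 reads in MHs and 8, 5 and 1 reads in SHs. Icam1, the marker used for positive selection, had 130 and 276 reads, or 7.66 RPM in MHs and 6.52 RPM in SHs. Its log2 SH/MH ratio was -0.24 (-0.54 to 0.08), so its level was not higher in SHs beyond counting error.

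The sequences upstream of a RefSeq start are shown first for 4 of these genes. Of the members with at least 10 reads, Dll4 and Notch4 were those at least 2-fold lower in SHs with an interval under 0. Notch2 was the receptor with the most reads. Rbpj was the member whose bases before such a start held its own protein's motif. RefSeq promoters of build GRCm38.p6 were found for 8 of the 10 genes, namely all except Hes1 and Hey1. The 250 bases before each start were searched on both strands for TGGGAA, the core of the RBPJ motif, for its longer form GTGGGAA, which contains it, and for CACNAG, the N box bound by HES repressors. Positions count back from the base before the RefSeq start, and capitals mark TGGGAA or CACNAG or their reverse complements. Each sequence is given 5′ to 3′ on the gene's strand and ends where GENCODE M21 annotates an exon of the gene, or at the start.
Dll4, plus strand, chr2:119325534-119325783: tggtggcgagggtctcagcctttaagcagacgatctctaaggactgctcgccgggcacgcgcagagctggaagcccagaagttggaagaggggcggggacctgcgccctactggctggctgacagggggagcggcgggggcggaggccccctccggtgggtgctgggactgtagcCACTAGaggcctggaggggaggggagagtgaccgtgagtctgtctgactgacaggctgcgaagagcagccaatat
Notch4, plus strand, chr17:34564045-34564267: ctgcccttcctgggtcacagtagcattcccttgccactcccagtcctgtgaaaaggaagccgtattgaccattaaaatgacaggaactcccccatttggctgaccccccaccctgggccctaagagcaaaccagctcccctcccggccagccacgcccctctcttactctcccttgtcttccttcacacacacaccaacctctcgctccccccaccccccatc
Notch2, plus strand, chr3:98013288-98013526: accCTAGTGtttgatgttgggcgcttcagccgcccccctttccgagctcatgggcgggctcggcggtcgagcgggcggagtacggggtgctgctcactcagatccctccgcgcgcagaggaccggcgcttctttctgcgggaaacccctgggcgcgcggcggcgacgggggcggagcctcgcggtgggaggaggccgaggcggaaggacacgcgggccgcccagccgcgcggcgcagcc
Rbpj, plus strand, chr5:53590096-53590213: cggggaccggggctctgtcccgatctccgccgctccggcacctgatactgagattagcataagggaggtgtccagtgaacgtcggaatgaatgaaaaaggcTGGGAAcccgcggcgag

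Rbpj was the only one of the 8 genes with TGGGAA in this window, at position -149 of the start shown and again at position -65, past the end of the printed piece. GENCODE M21 begins the Rbpj gene at 53466152, so these sites lie inside the gene and not 5′ of it. The windows of Notch1 and Jag2 also lie wholly inside their GENCODE gene spans. Among all 32851 RefSeq promoters, 21.6% held TGGGAA within their 250 upstream bases. None of the 8 genes held GTGGGAA, which 5.42% of all promoters held. CACNAG was found in the windows of 4 of the 8 genes, Notch1, Notch2, Notch3 and Dll4, against 36.7% of all promoters. It lay at position -75 in Dll4 and at -247 in Notch2, and was not found in the window of Notch4. These matches describe the letters of the window and say nothing of binding.

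Among the receptors, Notch2 carried most of the reads in both libraries, and its level was nearly equal between them. Notch1 was moderately lower in SHs, and Notch4 was lower by more than 2-fold. Notch3 was near the limit of detection in both.
Notch2, whose product is the Notch receptor best known from bile duct development, lies on chromosome 3, 98013527 to 98150361 of mm10, on the plus strand. It had 1448 reads in MHs and 3877 reads in SHs. These were 85.3 RPM (80.9 to 89.8) and 91.5 RPM (88.7 to 94.46), which gives a log2 SH/MH ratio of 0.10 (0.01 to 0.19). The interval lay just above 0, and with the SH library thinned to the depth of the MH library it was -0.01 to 0.19.
Notch1, which encodes a receptor with known roles in endothelial and hematopoietic cells, lies on the minus strand of chromosome 2, 26457903 to 26516663. It had 320 reads in MHs and 570 reads in SHs. Its level of 18.8 RPM (16.8 to 21.03) in MHs was 1.40-fold (1.22 to 1.61) that of 13.5 RPM (12.4 to 14.6) in SHs, and the log2 SH/MH ratio was -0.49 (-0.69 to -0.28). The Notch1 intervals of the libraries did not overlap, whereas those of Notch2 did.
Notch4, a receptor known mainly from endothelium, lies on the plus strand of chromosome 17, 34564268 to 34588503. It had 16 reads in MHs and only 10 in SHs despite their greater depth. The levels were 0.942 RPM (0.539 to 1.53) and 0.236 RPM (0.113 to 0.434), a log2 ratio of -1.97 (-3.30 to -0.77), or 3.99-fold lower (1.70 to 9.84).
Notch3, a receptor of vascular smooth muscle and pericytes, lies on chromosome 17, 32120820 to 32166852, on the minus strand. Just 2 reads (MHs) and 6 reads (SHs) fell on it, and the log2 SH/MH ratio of 0.06 had an interval of -2.22 to 3.61, so that no difference was detectable at this depth. An antisense gene on the opposite strand, Gm17276, had 3 and 8 reads, and since the use of strand in the counting is not given in the sources used here, the reads of Notch3 and Gm17276 cannot be told apart.

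The make-up of the receptor reads is a ratio within each library, which no scaling of the libraries changes. Notch2 made up 81.1% (79.2 to 82.9) of the 1786 receptor reads in MHs and 86.9% (85.8 to 87.8) of the 4463 receptor reads in SHs. Notch1 made up 17.9% (16.2 to 19.8) in MHs and 12.8% (11.8 to 13.8) in SHs, so its share was lower in SHs beyond counting error. Notch4 accounted for 0.896% (0.513 to 1.45) of the receptor reads in MHs and 0.224% (0.107 to 0.412) in SHs. For each 100 reads of Notch2, MHs had 22.1 reads of Notch1 (19.5 to 25.0) and SHs had 14.7 (13.4 to 16.1). The summed level of the receptors was 105.2 RPM in MHs and 105.4 RPM in SHs. Hence the sum hardly differed, while Notch1 and Notch4 held smaller shares of it in SHs and Notch2 a larger one. Per kilobase of exon, Notch2 held 84.5% in MHs and 89.5% in SHs, and Notch1 14.1% and 9.97%.

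The ligands had far fewer reads than Notch2. Dll4 and Jag1 were lower in SHs than in MHs beyond counting error, and Jag2 was near the limit of detection. Dll4, a Delta-like ligand of endothelial cells, had the largest difference among the 7 genes with at least 10 reads. It lies on the plus strand of chromosome 2, 119325784 to 119335962. Dll4 had 26 reads in MHs and 4 reads in SHs, which were 1.53 RPM (1.00 to 2.24) and 0.0944 RPM (0.0257 to 0.242). The intervals were far apart, and the level in SHs was 16.2-fold lower (5.63 to 63.9), with a log2 ratio of -3.88 (-6.00 to -2.49).
Jag1, the ligand of bile duct development, lies on chromosome 2 as well, 137081456 to 137116644 on the minus strand. It had 76 reads in MHs and 123 reads in SHs. Its level was 4.48 RPM (3.53 to 5.60) in MHs and 2.90 RPM (2.41 to 3.46) in SHs, and the log2 SH/MH ratio was -0.63 (-1.05 to -0.19). Jag1 was thus lower in SHs by 1.54-fold (1.14 to 2.07), less than the 2-fold limit used for a call. Within the ligands, 100 reads of Jag1 went with 34.2 reads of Dll4 (21.03 to 54.03) in MHs and 3.25 (0.872 to 8.54) in SHs.
Jag2, a second Jagged ligand, lies on chromosome 12, 112907819 to 112929776, on the minus strand. It had 0 reads in MHs, for which the limit of 3 reads is 0.177 RPM, and 6 reads or 0.142 RPM in SHs. No fold can be given, because the level in SHs was under that limit.

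Rbpj and Hes1, which act at the nuclear end of the pathway, did not differ between the libraries beyond counting error. Rbpj encodes the factor that carries the Notch intracellular part to DNA, and lies on the plus strand of chromosome 5, 53466152 to 53657362. It had 75 reads in MHs and 196 in SHs, or 4.42 RPM (3.47 to 5.54) and 4.63 RPM (4.002 to 5.32). Its log2 ratio was 0.06 (-0.32 to 0.47), and differences of up to 1.39-fold upward or 1.25-fold downward lay within the interval.
Hes1, a repressor that is the best known Notch target, lies on the plus strand of chromosome 16, 30064384 to 30067796. It had 626 reads in MHs and 1470 in SHs, or 36.9 RPM (34.0 to 39.9) and 34.7 RPM (33.0 to 36.5). The log2 ratio of Hes1 was -0.09 (-0.22 to 0.05), and differences of up to 1.17-fold downward or 1.04-fold upward lay within this counting interval. The 10 immediate-early genes, a list of cell handling responses led by Jun, Zfp36 and Fos, summed to 1854 RPM in MHs and 2021 RPM in SHs, and 0 of the 9 with at least 10 reads differed by 2-fold. Their part in the level of Hes1 was not tested.
Hey1, a target gene with known roles in blood vessels, lies on the minus strand of chromosome 3, 8663359 to 8667256. Its 4 reads in MHs and 1 read in SHs gave a log2 SH/MH ratio of -2.90, and the interval of -8.94 to 0.02 included 0.

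**Figure D1:**
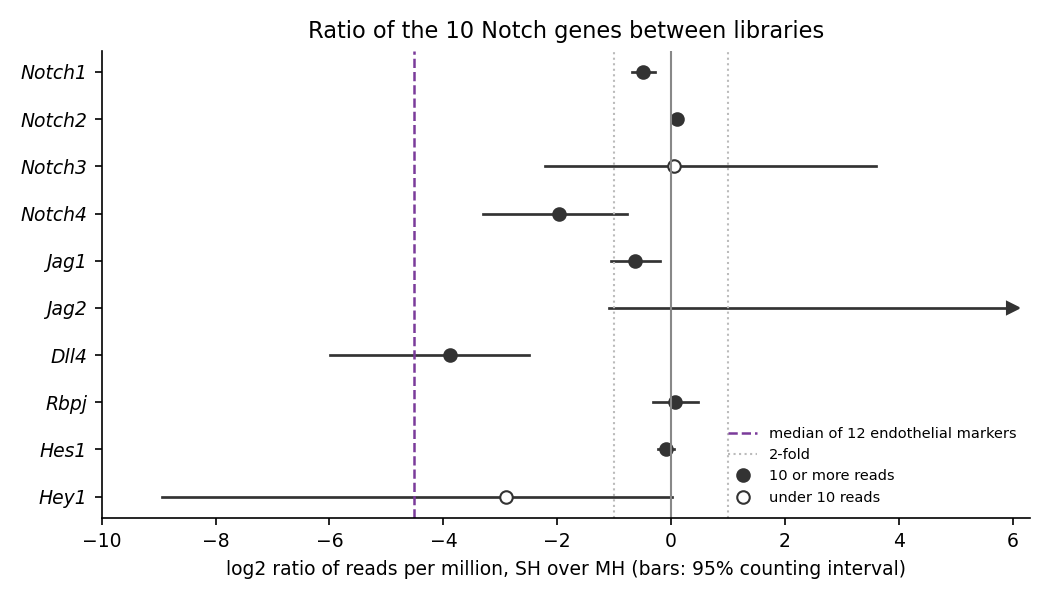
Ratio of SHs to MHs in RPM, on a log2 axis, for the 10 Notch genes, with 95% counting intervals as bars and open circles for genes with under 10 reads over both libraries; the arrow marks the interval of Jag2, which had 0 reads in MHs and has no point. The intervals of Dll4 (-3.88), Notch4 (-1.97), Jag1 (-0.63) and Notch1 (-0.49) lie under 0, those of Rbpj and Hes1 include 0, and the dashed line marks the endothelial marker median of -4.52.

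Among the 7 Notch genes that reached 10 reads, 2 (Dll4 and Notch4) were at least 2-fold lower in SHs with an interval wholly under 0, and 0 were at least 2-fold higher. Across the 15521 genes with at least 10 reads, these shares were 4.46% and 2.00%. By read number, the share called lower was 13.4% among the genes with 10 to 49 reads, to which both Dll4 and Notch4 belong, and 2.00% among those with 50 or more reads, where 0 of the 5 Notch genes were called. Both read ranges were chosen after the values were seen. At any fold, the interval lay under 0 for 4 of the 7 genes (Notch1, Notch4, Jag1 and Dll4) against 15.5% of all genes, and above 0 for 1 (Notch2) against 16.8%. The median log2 ratio was -0.49 over the 7 genes and 0.02 over all genes with at least 10 reads. Dll4 reached 10 reads only through the MH library, where it was high, so the counts and the median over the 7 genes are descriptions. In the ranking of all ratios from the lowest, Dll4 stood at the 1.14th percentile, Notch4 at 2.55, Jag1 at 9.80 and Notch1 at 12.96. Hes1, Rbpj and Notch2 stood in the middle of the ranking, at 36.4, 56.5 and 61.9.

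Levels of different genes were compared per kilobase of exon (RPKM), with exon lengths from GENCODE M21. The length counts every annotated exon base of a gene over all its transcripts, 12750 for Rbpj and 3852 for Dll4. It can exceed the length of the RNA that was expressed, which lowers the RPKM, so the order of genes depends on it. Hes1 had the highest level of the 10 genes, 18.1 RPKM (16.7 to 19.6) in MHs and 17.0 (16.2 to 17.9) in SHs. Notch2 followed with 7.91 RPKM (7.51 to 8.33) and 8.49 (8.22 to 8.76). Next came Notch1 with 1.32 (1.18 to 1.48) and 0.946 (0.869 to 1.03), and Jag1 with 0.768 (0.605 to 0.961) and 0.498 (0.414 to 0.595). These 4 genes had the same order in both libraries, and no neighbors among them had overlapping intervals.
Further down, the order differed between the libraries. In MHs, Dll4 with 0.398 RPKM (0.260 to 0.582) and Rbpj with 0.346 (0.273 to 0.434) were not distinguishable. In SHs, Rbpj had 0.363 RPKM (0.314 to 0.417), and Dll4, at 0.0245 (0.00668 to 0.0628), lay among Notch4, Jag2, Notch3 and Hey1. The intervals of these 5 genes in SHs overlapped one another, and their highest level was 0.0293 RPKM, that of Notch4. In MHs, Notch4 had 0.117 RPKM (0.0668 to 0.190), Hey1 0.0722 (0.0197 to 0.185) and Notch3 0.0146 (0.00176 to 0.0526). Notch4 and Notch3 did not overlap there, whereas Hey1 overlapped both. Among the 14600 genes with an exon length and at least 10 reads, Hes1 lay at percentile 86.8 in MHs and 86.3 in SHs, and Rbpj only at 17.3 and 18.5. The percentile of Dll4 was 19.0 in MHs and 2.25 in SHs.

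**Figure D2:**
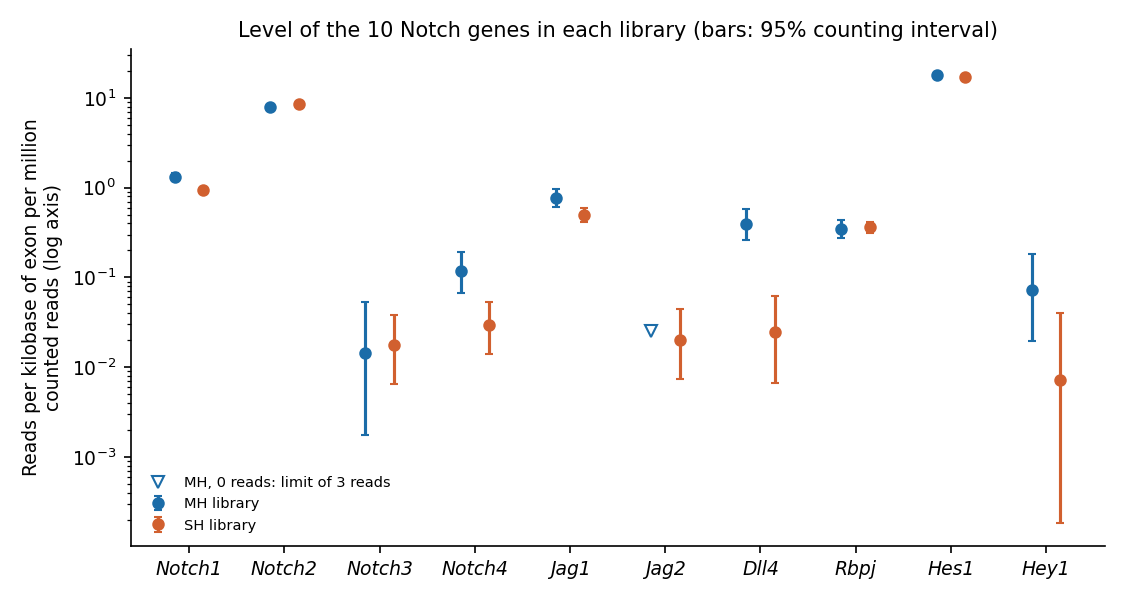
Level of each of the 10 Notch genes in MHs and SHs in RPKM on a log axis, with 95% counting intervals; the open triangle is the limit of 3 reads for Jag2, which had 0 reads in MHs. Hes1 at 18.1 and 17.0 and Notch2 at 7.91 and 8.49 lie close together in the libraries, and Dll4 lies at 0.398 in MHs and 0.0245 in SHs.

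Markers of other liver cells were set beside these values, because the MHs were not sorted. Each of the 12 endothelial markers that reached 10 reads was lower in SHs, from -6.18 to -1.62 on the log2 scale with a median of -4.52, or -4.38 with Lyve1 set to the bound that 3 reads give. Across all genes with at least 10 reads, 4.46% were called lower. Pecam1, Lyve1, Eng and Egfl7 reached 10 reads only through the MH library, where they were high. The 14 markers on this list summed to 103.4 RPM in MHs and 6.99 RPM in SHs. The endothelial genes with the most reads were Stab2 (a scavenger receptor of sinusoidal endothelium) with 338 and 119 reads, Ptprb (an endothelial phosphatase) with 422 and 30, and Kdr (a VEGF receptor) with 226 and 11. Lyve1, which marks sinusoidal and lymphatic endothelium, had 14 reads in MHs but 0 in SHs, while the other 13 markers had reads in both libraries. Fewer endothelial cells and less endothelial RNA per cell cannot be told apart in bulk RNA. The part of endothelial RNA in the ratios of Dll4, Notch4 and Notch1 was not tested.
Reads of some of these genes were also set against the summed endothelial markers. For each 1000 reads of endothelial markers, MHs had 14.8 reads of Dll4 (9.64 to 21.8) and SHs had 13.5 (3.66 to 34.97), so the intervals overlapped widely. Notch4 had 9.11 (5.20 to 14.8) in MHs and 33.8 (16.0 to 63.0) in SHs, and these intervals did not overlap. Notch1 had 182.2 (161.3 to 205.4) in MHs and 1926 (1670 to 2224) in SHs, and Jag1 had 43.3 (33.9 to 54.5) and 415.5 (334 to 514.5). The endothelial reads of SHs came mostly from Stab2 and from Tie1, a receptor of endothelial cells with 78 and 63 reads whose log2 ratio of -1.62 was nearer to 0 than that of Notch4. The summed markers were 14.8-fold lower in SHs with these genes and 29.3-fold lower without them, a sum that was added after seeing the data. Without them, Dll4 had 19.4 reads (12.6 to 28.6) in MHs and 35.1 (9.40 to 92.3) in SHs per 1000 endothelial reads, and Notch4 had 11.9 (6.81 to 19.5) and 87.7 (41.0 to 167.3). The intervals of Dll4 thus overlapped in either sum, but its SH interval rests on 4 reads and is wide. Hey1, with 1 read in SHs, overlapped as well in the first sum, at 2.28 (0.620 to 5.84) in MHs and 3.38 (0.0852 to 18.97) in SHs. In the second sum Hey1 also overlapped, at 2.99 (0.812 to 7.66) in MHs and 8.77 (0.220 to 49.9) in SHs. The intervals of Notch4 did not overlap in either sum. Leaving out Stab2 and Tie1 took the marker reads from 1756 to 1340 in MHs and from 296 to 114 in SHs. For Notch4 this could only widen the gap between the libraries, so the second sum was no separate check. None of these intervals includes the spread among the markers, whose log2 ratios ran from -6.18 to -1.62. The log2 ratio of Notch4, -1.97, lay inside that range. Whether any of these genes follows endothelial RNA was not tested.
Other cell types were covered by further lists. Among 9 macrophage markers that reached 10 reads, 8 had a 2-fold or larger deficit in SHs, and the 10 genes of the list, led by Clec4f, Cd5l and Csf1r, summed to 22.4 RPM in MHs and 1.02 RPM in SHs, with Marco at 0 reads in SHs. Among 10 stellate and mural markers that reached 10 reads, 8 had such a deficit. The 12 genes of that list, led by Reln, Dcn and Tagln, summed to 23.2 RPM in MHs and 2.998 RPM in SHs, with Colec11 at 0 reads in SHs. Across all genes, 4.46% of those with at least 10 reads and 13.4% of those with 10 to 49 reads were called lower. The 8 macrophage markers, and most of the stellate and mural ones, reached 10 reads only through the MH library, where they were high. Their counts are therefore descriptions. The 5 lymphocyte markers had 11 reads in MHs and 7 in SHs in all, with Cd3e at 0 in both libraries and Cd79a and Nkg7 at 0 in MHs. The 8 cholangiocyte markers summed to 21.4 RPM in MHs and 24.6 RPM in SHs. Sox9 and Spp1 were among the genes of that list with the most reads, whereas Krt19 and Krt7, the keratins that define cholangiocytes, had 1 read each in both libraries, and Cftr had 0 in SHs. The part of macrophage, stellate and cholangiocyte RNA in the levels of the Notch genes was not tested.

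**Figure D3:**
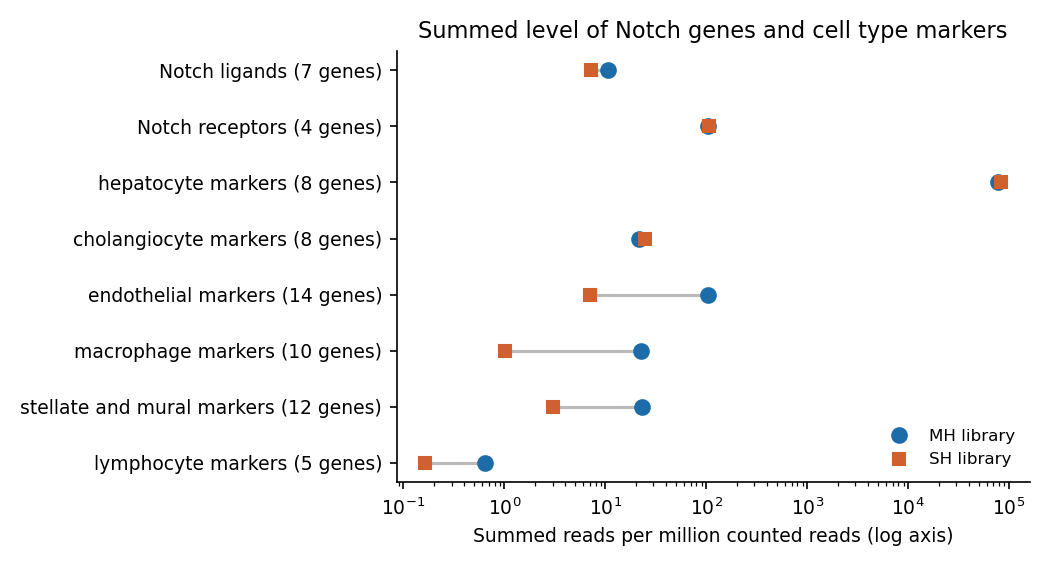
Summed RPM of the Notch ligands and receptors and of 6 lists of cell type markers in MHs (circles) and SHs (squares), on a log axis. The endothelial sum is 103.4 in MHs and 6.99 in SHs and the macrophage sum 22.4 and 1.02, while the Notch receptors lie at 105.2 and 105.4 and the ligands at 10.7 and 7.13.

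A wider list of 77 Notch pathway genes, the 10 genes included, was examined in the same way. Among its 64 genes that reached 10 reads, 4 had levels at least 2-fold lower in SHs with an interval under 0, 1 was at least 2-fold higher with an interval above 0, and 52 differed by less than 1.5-fold. Over all 15521 genes, 4.46% were called lower, 2.00% were called higher and 81.2% differed by less than 1.5-fold, so that the wider list lay near the background. Of the 5 called genes, Dll4, Nrarp and Hes7 reached 10 reads only through the library in which they were high, and these counts are descriptions. The median log2 ratio was -0.0034 over the 64 genes and 0.02 over the 57 that are not among the 10.
Among the genes that process the receptors, most differed by less than 1.5-fold, as did most genes of the libraries. All 6 genes for glycosylation and maturation with at least 10 reads differed by less than 1.5-fold. They were led by Furin, the protease of the first receptor cut, at 0.13 (0.07 to 0.19), and Pofut1, which adds fucose to Notch, at 0.23 (0.02 to 0.45). Of the 9 protease genes, 8 differed by less than 1.5-fold and 8 had intervals that included 0. Among all 15521 genes with at least 10 reads, 10516 had such intervals. Psen2, a catalytic subunit of γ-secretase, had a log2 ratio of -0.00 (-0.06 to 0.06), and Ncstn, another subunit, one of -0.01 (-0.14 to 0.13).
Of the 12 genes for ubiquitin and endocytosis with at least 10 reads, 1 was at least 2-fold lower with an interval under 0. The share over all genes was 4.46%. The lower gene was Neurl1b, a ubiquitin ligase that acts on ligands, covered by 14 reads in MHs and by 13 in SHs, at -1.42 on the log2 scale (-2.63 to -0.23). Itch and Mib1, ubiquitin ligases with far more reads, had log2 ratios of 0.04 (-0.07 to 0.15) and 0.17 (0.05 to 0.29).
Among the 8 genes of the activator complex with at least 10 reads, none differed by 2-fold, and the median was -0.04. Kat2b and Crebbp, both acetyltransferases, had -0.04 (-0.14 to 0.07) and -0.03 (-0.16 to 0.10). The 13 genes of the repressor complex with at least 10 reads all differed by less than 1.5-fold. Their intervals lay above 0 for 4 and under 0 for 0, against 16.8% and 15.5% of all genes with at least 10 reads. The most abundant were Aes, a Groucho-related corepressor, at 0.23 (0.19 to 0.27), and Ncor1, a nuclear receptor corepressor, at 0.11 (0.01 to 0.20).
Of the 14 genes listed as targets, 10 had at least 10 reads, and their ratios ranged widely. The list includes HES and HEY family members as such, and whether each gene responds to Notch in these cells was not tested. Nrarp, which encodes a feedback inhibitor of Notch, was covered by 12 reads in MHs and by 1 in SHs, with a ratio of -4.38 on the log2 scale (-10.3 to -2.15). Hes7, a repressor known from somite formation, was covered by 0 reads in MHs and by 22 in SHs, which is 2.94-fold higher when 3 reads are put in place of the 0, and the exact interval of its ratio began at 2.20-fold. Hes6, a further HES family member, had the most reads, 1531 in MHs against 4799 in SHs, at 0.33 on the log2 scale (0.25 to 0.41). Sox9, a transcription factor of the biliary lineage, was higher in SHs by 0.50 (0.16 to 0.85) on the log2 scale, and Spp1, osteopontin, was lower with -0.33 (-0.63 to -0.02). The genes listed as targets thus lay on both sides of 0, with Hes1 between them.
The remaining ligand with at least 10 reads, Dll1, a Delta-like ligand, was covered by 77 reads in MHs and by 165 in SHs, at -0.22 on the log2 scale (-0.62 to 0.19). The 7 ligands on the list summed to 10.7 RPM in MHs and 7.13 RPM in SHs.

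**Figure D4:**
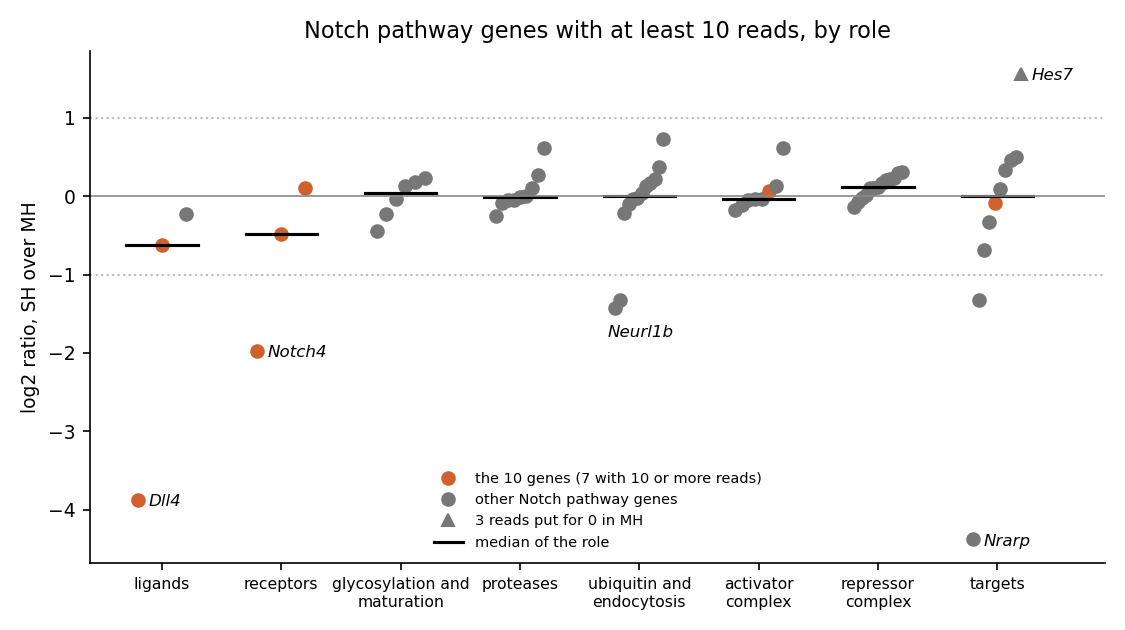
log2 ratio of SHs over MHs for the 64 Notch pathway genes with at least 10 reads, grouped by role, with the median of each role as a bar and dotted lines at 2-fold. Most genes lie near 0; Dll4, Notch4, Neurl1b and Nrarp lie more than 2-fold lower with intervals under 0, the unnamed points under the lower dotted line (Numbl and Efnb2) have intervals that include 0, and Hes7, with 0 reads in MHs, is drawn at the 2.94-fold ratio that 3 reads in MHs would give.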

How the data were processed

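The authors sequenced poly(A) RNA of 1 SH and 1 MH library on an Ion Proton system. They deposited raw read counts per gene symbol, not normalized. According to the methods, trimmed reads were mapped in CLC Genomics Workbench to mm10, the build that the submitters' processing notes also name, and expressed in RPKM. The program, annotation and strand setting behind the deposited counts are not given in the sources used here.

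Groups were taken from the sample titles. RPM was computed from the total counted reads, 16979136 in MHs and 42356444 in SHs. Log2 ratios used 0.5 added reads, and folds given in words used the reads as counted. Clopper-Pearson 95% intervals of the ratio came from the reads of each gene in SHs out of those in both libraries, and levels have exact Poisson intervals. Both cover counting error only, and reads carry no molecular identifiers. A call required 2-fold, an interval on that side of 0 and at least 10 reads over both libraries. With 1 library per group, no test was made. Exon lengths and coordinates came from GENCODE M21 (mm10), in which 39379 counted symbols had an exon length. The calculation was tested on simulated data with counting error only, in which the changed genes had more reads than Dll4 or Notch4. Python 3.11.15, numpy 2.4.6, pandas 2.3.3, scipy 1.17.1 and matplotlib 3.10.9 were used, with R 4.3.3, edgeR 4.0.16 and DESeq2 1.42.0 for alternative scalings of the counts.

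The members and lists were chosen with earlier results of these data known. Named beside the 10 genes were the called genes of the wider list, the 2 genes with the most reads per role, the 3 with the most reads per marker list and the sorting markers. Other names (genes at 0, keratins, overlapping genes and those of the closing section) were chosen after their values were seen. Adgre1 was matched by its older symbol Emr1. Some genes of these lists are not reported here by name.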

Additional observations from a re-analysis of the deposited data

How the results depend on the processing

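No paired analysis was possible because each group held 1 library without a replicate number. TMM, DESeq2 size factors and a total that leaves out the 10 most abundant genes shifted all genes by 0.01, 0.01 and 0.03 on the log2 scale. Under these, under 2 added reads and under thinning of the SH library, each of the 10 genes kept a ratio within the interval given in the text, in 50 comparisons. Counts and medians depended on the read minimum and the fold. With at least 50 reads, the median of the Notch genes was -0.088, and 0 were called lower. In the wider list, 0 were then called lower and 0 higher. At 4-fold, 1 Notch gene (Dll4) and 2 genes of the wider list were called lower. At 1.5-fold, 2 genes of the wider list were called higher, and with the SH library thinned 0 were. In that single thinning Jag1 had a log2 ratio of -1.03 and passed 2-fold, and the ratios were -2.92 for Dll4, -2.72 for Notch4 and -1.58 for Hey1, which rest on few reads. Each of these settings admits other genes, folds or reads. The call of Dll4 and Notch4 rests on 30 and 26 reads over both libraries.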

Other observations

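Some Notch pathway genes outside the naming rule had intervals on 1 side of 0. Maml3, a Mastermind-like coactivator, was covered by 55 reads in MHs and by 211 in SHs, at 0.61 on the log2 scale (0.19 to 1.08). Dtx4, a Deltex ubiquitin ligase, had 280 and 907 reads, a log2 ratio of 0.38 (0.18 to 0.58). Adam17, one of the proteases that cut Notch, was slightly lower in SHs, at -0.25 (-0.45 to -0.05). Ccnd1, cyclin D1, had -0.68 (-1.12 to -0.23). Spen, a corepressor that acts with RBPJ, was at 0.29 (0.14 to 0.45). These genes were picked from the list after their values were seen, and the ratios have no replicate check.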
